A study of Mus musculus with 6 samples.

Results

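Chromatin association was examined at 10 genes that make, hold and receive transforming growth factor beta (TGF-b) in mouse primary cardiac fibroblasts: the ligand genes Tgfb1, Tgfb2 and Tgfb3, the receptor genes Tgfbr1, Tgfbr2 and Acvrl1, the co-receptor genes Tgfbr3 and Eng, and the latency genes Ltbp1 and Ltbp2. The members were all regions that the deposited tables assigned to these symbols, with no use of their signal beyond the peak calls that listed them. They numbered 181 distinct regions of 370756. The study profiled 6 libraries by CUT&Tag, in which an antibody directs a transposase to chromatin and the cut fragments are sequenced. The titles mark each library with T or S. The study worked on TAZ and SRF, but no label states the antibody, and the libraries are therefore grouped by that letter, as the T set and the S set. Each set held 1 library of cells labelled NC, 1 of cells given TGF-b, and 1 of cells given TGF-b with an siRNA, which the labels write as TGF-b+SiTAZ in the T set and TGF-b+SiSRF in the S set. The study's text names Piezo2 as the siRNA target in these experiments, so the target is not stated further. NC is not spelled out in the labels. The series' design text describes Tet3 deletion by a Cre virus, but no label of these 6 libraries gives a Tet3 genotype, a strain or an age. The labels do not say how many cultures or animals stand behind a library.

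The TGF-b ligands are secreted inside a latent complex with their own propeptide. Latent TGF-b binding proteins such as Ltbp1 tie that complex to the extracellular matrix, and integrins or proteases release the ligand. Free ligand is bound by the type II receptor Tgfbr2, which recruits and phosphorylates the type I receptor Tgfbr1 (or, mainly in endothelium, Acvrl1), and the type I receptor then phosphorylates SMAD proteins. Betaglycan (Tgfbr3) and endoglin (Eng) present or modulate the ligand at the cell surface. In cardiac fibroblasts this pathway is known for driving the change into matrix-producing myofibroblasts.

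Among regions near annotated start sites, the most deeply read lay at Tgfbr1, Tgfbr2 and Tgfb1. The 250 bases before the first start of these genes are shown, 5' to 3' on the coding strand. At Tgfb1 the deeply read region lay at a start inside the gene, so the window shown is not beside it. Sequences and positions are those of RefSeq on GRCm38.p6: Tgfbr1 at chr4:47352972-47353221 (plus strand), Tgfbr2 at chr9:116175364-116175613 (minus strand) and Tgfb1 at chr7:25686752-25687001 (plus strand). Capitals mark the GC box letters GGGCGG, on either strand (CCGCCC where it lies on the other strand), a motif chosen after the values were seen.
Tgfbr1: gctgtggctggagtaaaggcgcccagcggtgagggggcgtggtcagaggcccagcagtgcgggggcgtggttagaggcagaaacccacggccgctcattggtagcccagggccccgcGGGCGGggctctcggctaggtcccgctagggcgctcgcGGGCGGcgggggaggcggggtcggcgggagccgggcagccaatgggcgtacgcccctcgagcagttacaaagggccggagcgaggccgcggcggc
Tgfbr2: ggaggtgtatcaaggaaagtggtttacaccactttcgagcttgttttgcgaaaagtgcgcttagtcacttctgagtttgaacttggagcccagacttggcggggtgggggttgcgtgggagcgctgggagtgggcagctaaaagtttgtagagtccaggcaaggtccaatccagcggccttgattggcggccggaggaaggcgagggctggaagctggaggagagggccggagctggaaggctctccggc
Tgfb1: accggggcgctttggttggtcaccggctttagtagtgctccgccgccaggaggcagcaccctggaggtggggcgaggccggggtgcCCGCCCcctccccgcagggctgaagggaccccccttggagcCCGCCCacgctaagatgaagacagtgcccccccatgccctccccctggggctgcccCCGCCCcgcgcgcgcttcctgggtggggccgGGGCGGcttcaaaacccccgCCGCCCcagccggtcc
The Tgfb1 window held 5 GC boxes, the Tgfbr1 window 2 and the Tgfbr2 window 0, and 32.7% of all 32851 windows of this length held at least 1. The same windows held 21, 29 and 12 CpG dinucleotides, against a median of 6.0 over all windows. Of the 10 genes, 7 were matched in this table, with 9 windows. None of the 9 held a CArG box (the element bound by SRF, in 1.47% of all windows), CATTCC (the MCAT element bound by TEAD factors, 12.6%), TGACTCA (AP-1, 4.46%) or GTCTAGAC (a SMAD element, 0.167%), each searched on both strands. These matches describe letters in a window and say nothing of binding.

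The tables gave a normalized read density for each library of a pair, from which whole reads per 2 kb window around a region were recovered. Ratios are log2 of the later over the earlier library's normalized density, reads are given as recovered and not scaled for depth, and a region with under 20 reads over both libraries is called shallow. The interval beside a ratio is a 95% Wilson interval on the log2 ratio and covers counting error only. Treatments were not tested, since none has a replicate, and the values describe these libraries. A region is listed only where a peak was called in at least 1 of the libraries compared, so regions called in 1 library lean towards that library. The median log2 ratio of all regions was -0.65 (T set) and -0.20 (S set) for TGF-b over NC. For TGF-b with siRNA over TGF-b it was 0.97 and -0.21. Both comparisons of a set share the TGF-b library, so a high or low count there moves them in opposite directions. Of 7 fibroblast marker genes, 6 had a region in the T set table of TGF-b over NC (none for Tcf21) and 2 in that of the S set, where Col1a2, Pdgfra, Tcf21, Dcn and Lum had none. Regions also lay at markers of cardiomyocytes (4 of 4 in that T set table), endothelial cells (3 of 3) and macrophages (3 of 3). For sums of density, 1 region was taken per marker gene, the densest within 3 kb of a transcription start site or else the nearest. The region taken and the scaling can differ between comparisons, so sums of the same TGF-b library differ too. Between NC and TGF-b in the T set, the summed density was 38.6 and 36.5 for fibroblasts, 19.1 and 13.1 for cardiomyocytes, 30.4 and 11.9 for endothelial cells, and 28.2 and 11.4 for macrophages. In the S set the same sums were 11.1 and 3.26, 14.1 and 7.77, 15.8 and 20.5, and 8.56 and 9.80. Between TGF-b and TGF-b with siRNA they were, in the T set, 28.5 and 26.4, 5.13 and 18.1, 14.9 and 22.9, and 10.7 and 23.5. In the S set they were 4.31 and 12, 8.77 and 19.7, 20.97 and 22.12, and 22.2 and 11.9. Association does not measure transcripts, and the part of other cell types in the values below was not tested.

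The T set had 155 of the regions and the S set 26. Introns held 130 of the T set regions (83.9%) and 21 of the S set regions (80.8%). There were 17 T set and 4 S set regions within 1 kb of a transcription start site (TSS), and 102 and 14 beyond 10 kb. In the T set table of TGF-b over NC, introns held 83.9% of the members against 74.6% of all regions with an assigned gene, and 21.5% against 27.9% lay within 3 kb of a TSS. Long genes had most of them: Ltbp1 and Tgfbr3 together had 82 (T set) and 15 (S set). Per length, the 10 genes had 15.6 T set regions per 100 kb of gene against 14.1 over all genes with a T set region, and 2.62 S set regions against 3.39. Acvrl1, at 16.8 kb, had 41.6 T set regions per 100 kb and Tgfb3, at 22.3 kb, had 4.49, which were the highest and lowest of the 10. Ltbp1, at 386.9 kb, had 14.0. In the S set, Tgfb1, Tgfb3 and Acvrl1 had no region in either table. The authors' annotation put 11 T set and 2 S set regions in another gene, which can overlap the gene they were assigned to. The 2 kb windows of 41 of the 93 T set regions of TGF-b over NC overlapped that of a neighbour, so such regions share reads.

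**Figure D1:**
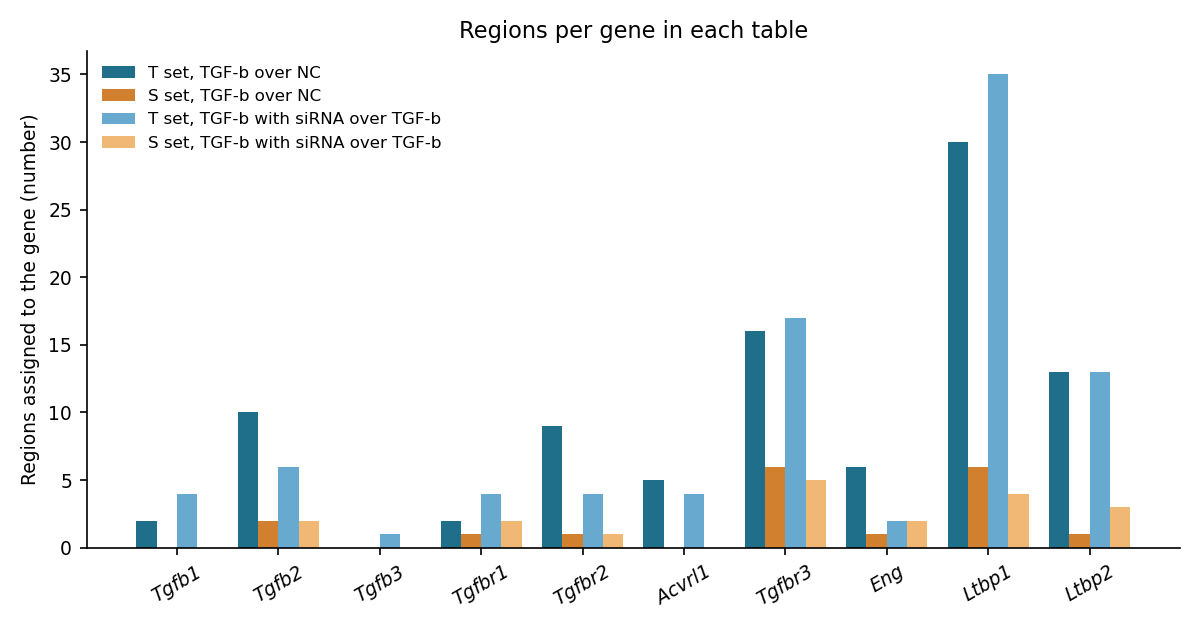
Number of regions assigned to each of the 10 genes (x axis) in each of the 4 tables (bars, y axis in regions). Ltbp1 had the most in both T set tables, 30 and 35, and Tgfb3 had 1 region, in the T set table of TGF-b with siRNA over TGF-b.

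The first comparison asked where T set association differed between cells given TGF-b and NC cells. At the T set regions of the 10 genes it was lower more often than higher. The share that was lower was near that of the whole table, and the share that was higher was below it. Of 93 regions in 9 genes, 41 (44.1%) were at least 2-fold lower, against 42.1% of all regions, and 9 (9.68%) at least 2-fold higher, against 17.3%. The counting interval lay wholly below 0 in 30 (32.3%, against 31.1%) and wholly above 0 in 8 (8.60%, against 14.8%). The members' median log2 ratio was -0.83. After centring on the median of all regions, 25 were at least 2-fold lower and 22 higher, against 27.2% and 26.7% of all regions. Among the 44 regions with 20 reads or more, 14 were at least 2-fold lower, against 37.2% of all such regions, and 2 higher, against 10.3%.

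Of the receptor genes, Tgfbr1 had a higher T set density at its start site under TGF-b beyond counting error. At the start sites of Tgfbr2 and Acvrl1 the ratios in the authors' normalization were within counting error. The Tgfbr1 promoter region (chr4:47352913-47353206, 163 bp upstream of a TSS; file coordinates here and below are taken as GRCm39) had 24 reads in NC, 50 with TGF-b and 33 with TGF-b and siRNA. The ratio of TGF-b over NC was 1.03 (0.37 to 1.76), and it was 1.68 after centring. At Tgfbr2, the 5' UTR region (chr9:116004226-116004334, 53 bp downstream of a TSS) had 17, 29 and 20 reads in the same order. Its ratio of 0.78 (-0.04 to 1.66) was within counting error, and it was 1.43 after centring. That shift would lift the interval above 0, so the call depends on the scaling. The Tgfbr1 and Tgfbr2 intervals overlap widely, and the difference between the genes was not tested. The neighbouring Tgfbr2 promoter region, 124 bp upstream, had 16, 27 and 20 reads and a ratio of 0.77 (-0.08 to 1.68), and shares most of its window. The 7 Tgfbr2 regions in introns were all called only in NC, and 5 were at least 2-fold lower, against 59.2% of all regions called only in NC. The start-site regions were called with TGF-b alone or in both libraries, so the peak listing itself leans apart at these sites. The region in intron 2 (chr9:115981994-115982101) had 42 reads in NC and 15 with TGF-b, a ratio of -1.40 (-2.29 to -0.62). Regions in introns 1 and 6 had 23 and 21 reads in NC and 4 each with TGF-b. Those in introns 4 and 5 had 10 and 3 reads and 7 and 2 reads, with ratios of -1.30 and -1.23 that were within counting error. A further region in intron 6 (6 and 8 reads) and one in intron 7 (12 and 11) had ratios of 0.50 and -0.02. Acvrl1, the type I receptor best known from endothelium, had 5 regions with ratios from -1.16 to -0.09. Its most deeply read region near a TSS, 1514 bp upstream, had 21 reads in NC, 15 with TGF-b and 13 with siRNA, a ratio of -0.40 (-1.36 to 0.51) for TGF-b over NC. The Acvrl1 region 177 bp upstream of a TSS inside the gene had 17 and 11 reads, a ratio of -0.50 (-1.61 to 0.52). After centring these 2 ratios were 0.25 and 0.15, so their sign depends on the scaling.

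At the ligand genes, the Tgfb1 region in an exon 513 bp downstream of a TSS (chr7:25388788-25388942) had 19 reads in NC and 25 with TGF-b, a ratio of 0.42 (-0.41 to 1.29). A further Tgfb1 region, 1416 bp downstream, had 18 and 24 reads, and neither was separable from 0 at this depth. All 10 Tgfb2 regions were called only in NC, and so were listed for their NC signal. Of these, 7 were at least 2-fold lower, against 59.2% of all regions called only in NC, whose median was -1.27. The Tgfb2 region 890 bp upstream of a TSS inside the gene had 9 and 3 reads, a ratio of -1.16 (-3.20 to 0.35). After centring, 1 of the 10 was positive, at 0.62 (9 and 8 reads). The annotation put 5 of the 10 in an intron of another gene, which does not by itself place them outside Tgfb2. The deepest Tgfb2 region past 2-fold, in intron 1 (chr1:186400449-186400532), had 22 reads in NC and 2 with TGF-b, a ratio of -2.80 (-5.26 to -1.39). A neighbour in the same intron had 18 reads and 1, and those windows overlap. Tgfb3 had no region in this table.

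The co-receptors had 22 regions, of which 7 were at least 2-fold lower and 2 higher, against 42.1% and 17.3% of all regions. Eng in intron 2 (chr2:32555540-32555615) had 29 reads in NC and 6 with TGF-b, a ratio of -2.02 (-3.42 to -0.96). Its most deeply read region, in intron 1 (chr2:32543868-32544208), had 38 and 25 reads, a ratio of -0.57 (-1.31 to 0.13). A shallow Eng region in intron 1, 1405 bp downstream of a TSS (chr2:32538001-32538078), ran the other way. With 5 and 11 reads, its ratio was 1.13 (-0.19 to 2.73), and 1.78 after centring. The betaglycan gene Tgfbr3 had 16 regions, 5 at least 2-fold lower and 1 higher. In its intron 12 (chr5:107283695-107283804) the reads were 20 in NC, 7 with TGF-b and 0 with TGF-b and siRNA, and the ratio of TGF-b over NC was -1.30 (-2.63 to -0.21). In its intron 3 (chr5:107354653-107354948) they were 21, 26 and 8. In its intron 2 (chr5:107401335-107401511) they were 0, 7 and 21.

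The latency genes carried 43 of the 93 regions, of which 21 were at least 2-fold lower and 6 higher, against the same 42.1% and 17.3% of all regions. The deepest region of all 10 genes was in Ltbp1 intron 10 (chr17:75563068-75563279), with 82 reads in NC, 58 with TGF-b and 31 with TGF-b and siRNA. Its ratio of TGF-b over NC was -0.55 (-1.04 to -0.08), which is near the table's median and 0.10 after centring. An Ltbp1 region annotated as promoter (chr17:75485566-75485814, 115 bp upstream of a TSS inside the gene) had 23, 11 and 13 reads in that order, a ratio of -0.93 (-2.01 to 0.02). In Ltbp1 intron 4 (chr17:75473392-75473547) 36 reads in NC stood against 0 with TGF-b, 10.7-fold lower when 0 is set to the floor of 3 reads. The interval of that log2 ratio lay below -3.07. Of its 30 regions, 14 were at least 2-fold lower and 4 higher. Among those higher, intron 24 (chr17:75633910-75634038) had 0 reads in NC, 11 with TGF-b and 2 with siRNA, and intron 3 (chr17:75394558-75394720) had 1, 14 and 1. Those are shallow regions. Ltbp2, which binds matrix but is not known to bind latent TGF-b itself, had 7 of 13 regions at least 2-fold lower. In its intron 18 (chr12:84844498-84844572) 26 reads in NC stood against 6 with TGF-b, a ratio of -1.86 (-3.27 to -0.78). Its intron 10 (chr12:84858872-84859038) had 6, 19 and 14 reads and a ratio of TGF-b over NC of 1.62 (0.48 to 3.05).

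**Figure D2:**
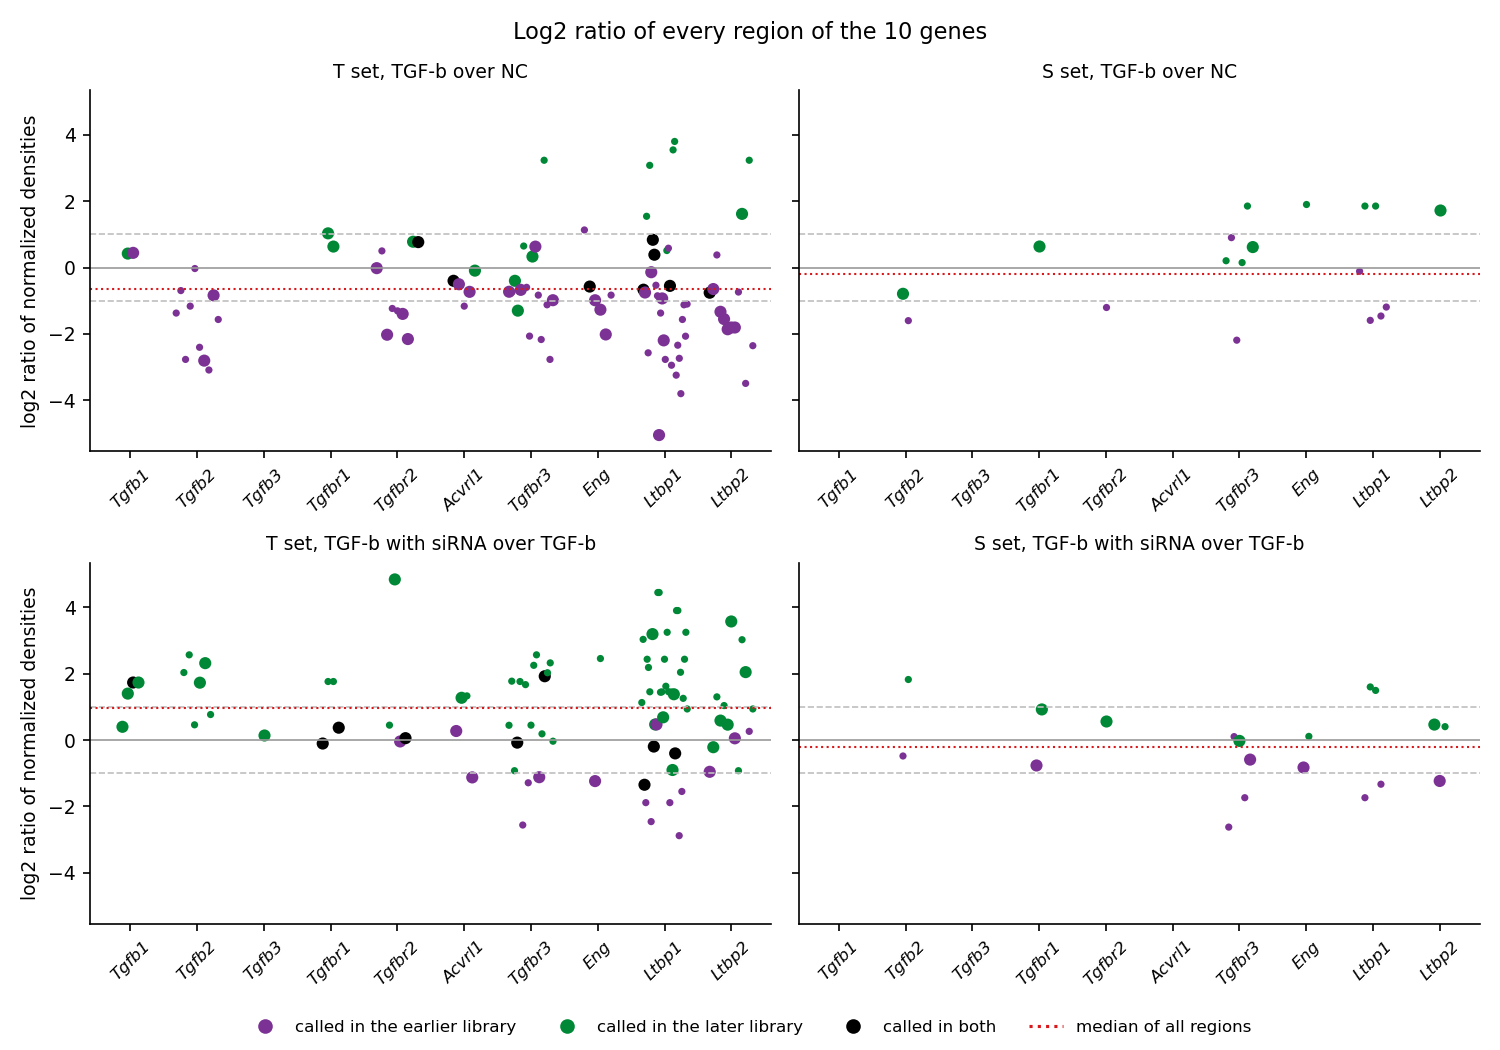
Log2 ratio of normalized densities (y axis) of every region of the 10 genes (x axis) in the 4 comparisons, coloured by the library in which the peak was called, with large points for 20 reads or more. Dashed lines mark 2-fold and dotted lines the median of all regions of that table (-0.65, -0.20, 0.97 and -0.21). Points called in 1 library lie mostly on that library's side.

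In the S set, the same comparison covered 18 regions in 7 genes. At least 2-fold higher were 5 regions (27.8%, against 17.4% of all regions) and at least 2-fold lower 6 (33.3%, against 26.7%). The interval lay above 0 in 5 (27.8%, against 11.5%) and below 0 in 3 (16.7%, against 19.2%). With 18 regions, and 14 of them shallow, 1 region moves such a share by over 5 percentage points. Centring gave 6 higher (against 21.7% of all regions) and 4 lower (21.6%), and leaving out the authors' line 8 (32.7%) and 3 (15.3%). The members' median was 0.18. Of the 4 regions with 20 reads or more, 1 was past 2-fold, higher (against 14.3% of all such regions), and 0 were lower (against 16.2%). Those 4 lay at Ltbp2, Tgfbr1, Tgfbr3 and Tgfb2, and only at Ltbp2 did the interval leave out 0.

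An Ltbp2 region annotated as promoter lies inside the gene body, beside intron 23, upstream of an internal TSS and far from the gene's first start. That region (chr12:84838812-84838994, 286 bp upstream of the internal TSS) had 3 reads in NC, 19 with TGF-b and 7 with TGF-b and siRNA in the S set. Its ratio of TGF-b over NC was 1.74 (0.42 to 3.74). The Tgfbr1 promoter region (chr4:47353074-47353301, 35 bp upstream) had 12, 29 and 16 reads, so TGF-b had the most reads, as in the T set, but the ratio of 0.65 (-0.23 to 1.67) was within counting error. A Tgfbr3 region in intron 1 (chr5:107436932-107437180, 405 bp downstream of a TSS) had 6, 15 and 9 reads and a ratio of 0.62 (-0.57 to 2.07). An Eng region in intron 2 (chr2:32559289-32559489) had 2, 16 and 8 reads and a ratio of 1.91 (0.44 to 4.37). The other 3 regions at least 2-fold higher, at Ltbp1 introns 4 and 32 and Tgfbr3 intron 1, each had 1 read in NC and 10 with TGF-b, a ratio of 1.85 (0.12 to 5.31). The 6 regions at least 2-fold lower were 3 of Ltbp1 and 1 each of Tgfb2, Tgfbr2 and Tgfbr3, with 5 to 10 reads in NC. The deeper Tgfb2 region (chr1:186372723-186372930), annotated to an intron of another gene, had 13 reads in NC and 11 with TGF-b, a ratio of -0.79 (-1.94 to 0.32). The Tgfb2 region past 2-fold, which also lies in an intron of another gene, had 7, 3 and 12 reads in NC, TGF-b and TGF-b with siRNA.

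**Figure D3:**
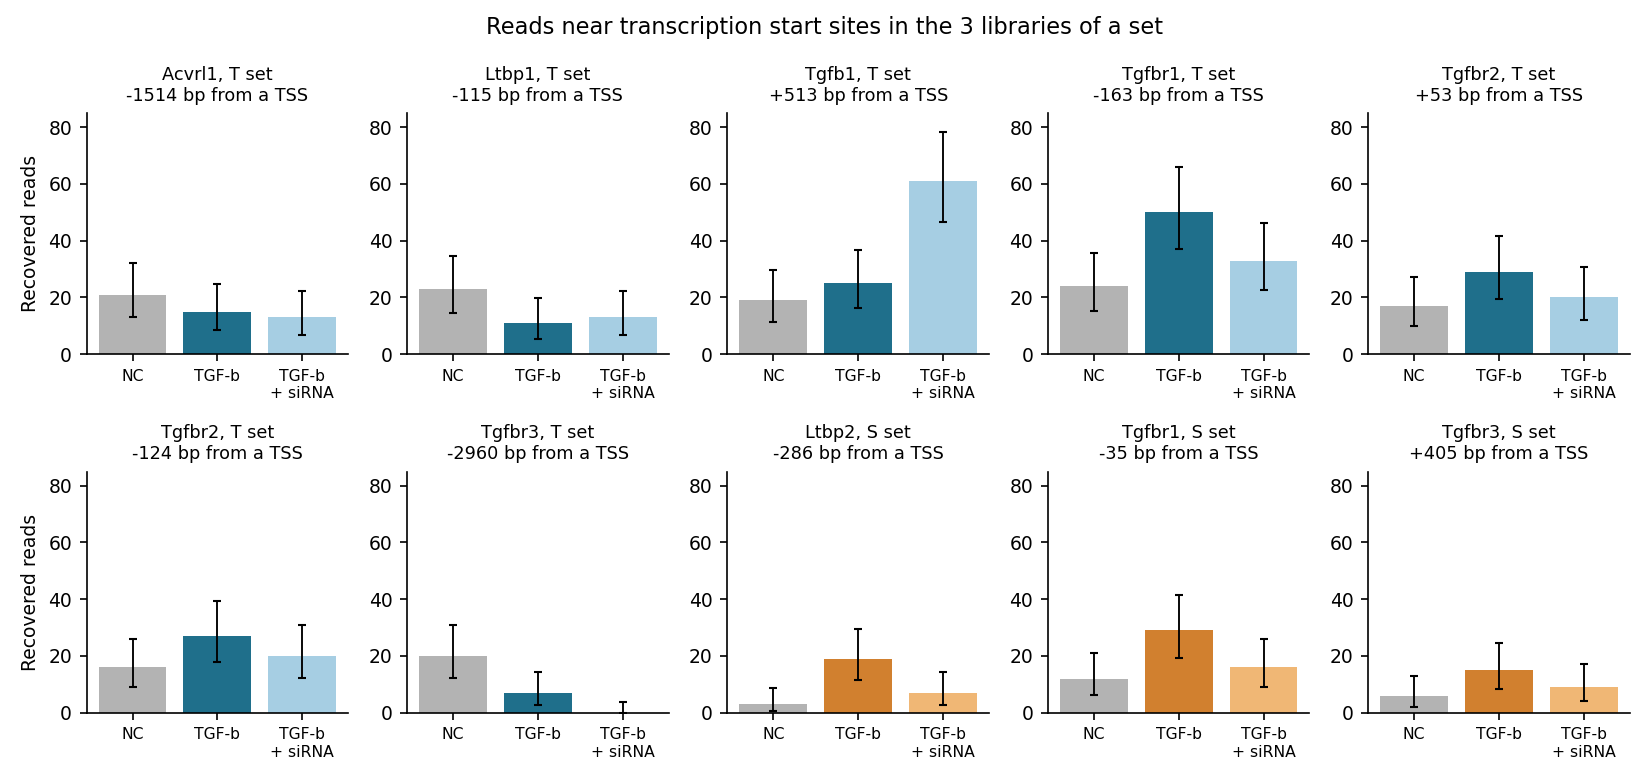
Recovered reads (y axis, unscaled for depth) in the NC, TGF-b and TGF-b with siRNA libraries at the 10 regions within 3 kb of an annotated TSS, which can lie inside the gene, that were listed in both tables of a set. Error bars are exact 95% Poisson intervals of the count, for counting error only. TGF-b had the most reads at Tgfbr1 (50 in the T set, 29 in the S set) and Tgfbr2, whereas Tgfb1 had the most, 61, with TGF-b and siRNA.

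The second comparison asked how association in cells given TGF-b differed with the siRNA. In the T set most regions of the 10 genes had higher ratios, as most regions of the table did. Of 90 regions in all 10 genes, 48 (53.3%) were at least 2-fold higher, against 49.7% of all regions, and 11 (12.2%) at least 2-fold lower, against 16.2%. The interval lay above 0 in 36 (40.0%, against 38.9%) and below 0 in 7 (7.78%, against 11.4%). The members' median of 1.26 came to 0.29 after centring, with 25 at least 2-fold higher and 22 lower, against 29.2% and 28.9% of all regions. Of the 35 regions with 20 reads or more, 12 were at least 2-fold higher, against 39.4% of all such regions, and 4 lower, against 12.5%. Of the 90 regions, 65 (72.2%, against 70.5% of all regions) were called only with the siRNA. Their median was 1.62, as it was for all regions so called. In both libraries 9 (10.0%, against 4.21%) were called, with a median of -0.08.

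Tgfb1, a ligand known as a driver of fibrosis, had the largest ratios among the deep start-site regions. Its exon region 513 bp downstream of a TSS inside the gene had 25 reads with TGF-b and 61 with TGF-b and siRNA, a ratio of 1.73 (1.10 to 2.43). The ratio was 1.25 without the authors' line and 0.76 after centring, so it was positive under each scaling but under 2-fold after centring. A 5' UTR region of Tgfb1 (chr7:25388413-25388486, 97 bp downstream) had 27 and 52 reads, a ratio of 1.40 (0.76 to 2.09), and the windows of these regions overlap. A further 5' UTR region, 358 bp downstream of the gene's first TSS (chr7:25386749-25386821), had 20 and 19 reads and a ratio of 0.40 (-0.50 to 1.29). Tgfb2 had 6 regions, with ratios from 0.46 to 2.57, and 4 were at least 2-fold higher. All 6 were called only with the siRNA, and 67.6% of all regions so called were at least 2-fold higher. The deepest (chr1:186454703-186454770) had 9 and 35 reads, a ratio of 2.32 (1.39 to 3.46), but lies in an intron of another gene, 16550 bp upstream of the Tgfb2 TSS. The only Tgfb3 region, in the promoter 600 bp upstream of a TSS (chr12:86126383-86126447), had 15 and 12 reads and a ratio of 0.16 (-0.93 to 1.21).

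At Tgfbr1 and Tgfbr2 the start-site ratios were near 0 in the authors' normalization. Of 4 Acvrl1 regions, 2 were at least 2-fold higher and 1 lower, against 49.7% and 16.2% of all regions. The highest ratio was 1.33, and 1 interval lay above 0. The Tgfbr1 promoter region, with 50 and 33 reads, had a ratio of -0.10 (-0.75 to 0.51), and the Tgfbr2 5' UTR region, with 29 and 20, one of -0.04 (-0.87 to 0.75). Both were past 2-fold lower after centring, at -1.08 and -1.01, so whether these sites had less association with the siRNA depends on the scaling. A region of Acvrl1 annotated as promoter, 52 bp upstream of a TSS inside the gene (chr15:101031200-101031288) had 11 and 20 reads, a ratio of 1.27 (0.29 to 2.37), and 0.30 after centring. The Acvrl1 region 1514 bp upstream of the gene's first TSS had 15 and 13 reads, a ratio of 0.27 (-0.79 to 1.31), and -0.70 after centring. A 3' UTR region of Acvrl1 had 17 and 5 reads, a ratio of -1.13 (-2.69 to 0.08). In Tgfbr2 intron 4 (chr9:115950866-115951057) 0 reads with TGF-b stood against 20 with siRNA, 9.09-fold higher when 0 is set to the floor of 3 reads. The interval of that log2 ratio lay above 2.83.

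The co-receptors each had a deep region that was at least 2-fold lower with siRNA. The most deeply read Eng region above, in intron 1, had 25 reads with TGF-b and 7 with siRNA, a ratio of -1.24 (-2.55 to -0.20). Tgfbr3 intron 3 had 26 and 8, a ratio of -1.12 (-2.35 to -0.12). Tgfbr3 intron 2 ran the other way, at 7 and 21 reads and a ratio of 1.92 (0.85 to 3.25). Over all co-receptor regions 9 of 19 were at least 2-fold higher and 4 lower, and 8 of those higher were in Tgfbr3. The latency genes had 27 of 48 regions at least 2-fold higher and 6 lower. Over all regions of the table these shares were 49.7% higher and 16.2% lower. Ltbp1 alone had 35 regions, 22 higher and 6 lower, but its deepest, in intron 10, had 58 and 31 reads and a ratio of -0.40 (-1.05 to 0.20). An Ltbp1 region in intron 2 (chr17:75362289-75362529) had 33 reads in NC, 20 with TGF-b and 5 with siRNA, a ratio of -1.35 (-2.90 to -0.18) for siRNA. One in intron 3 (chr17:75406417-75406481) had 2 reads with TGF-b and 19 with siRNA, a ratio of 3.19 (1.75 to 5.65). Ltbp2 intron 16 (chr12:84850913-84850991) had 2 and 25 reads, a ratio of 3.57 (2.17 to 6.03), and Ltbp2 had 5 regions at least 2-fold higher and 0 lower of 13.

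**Figure D4:**
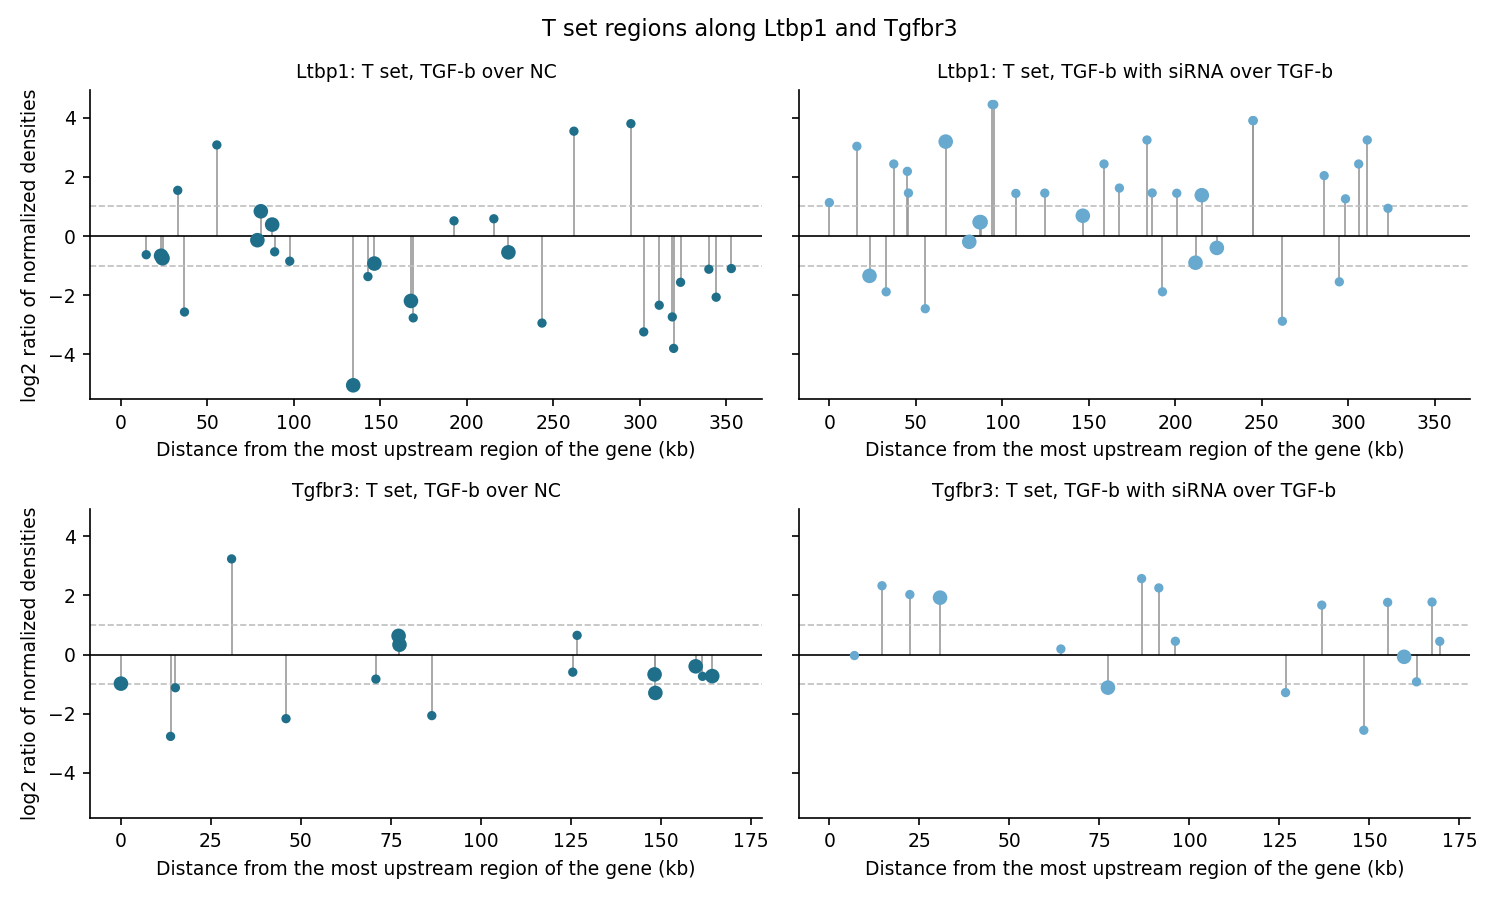
Log2 ratio of normalized densities (y axis) of T set regions along Ltbp1 and Tgfbr3, by distance in kb from the gene's most upstream region (x axis), for TGF-b over NC and for TGF-b with siRNA over TGF-b. Large points have 20 reads or more and dashed lines mark 2-fold. Ratios against a library with 0 reads, such as the lowest and highest of Ltbp1, depend on the 1 read added to each count. In TGF-b over NC 14 of the 30 regions of Ltbp1 were at least 2-fold lower and 4 higher, with positive and negative values interspersed along the gene.

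The S set comparison of siRNA covered 19 regions in 7 genes, whose shares were near those of the table. At least 2-fold higher were 3 (15.8%, against 15.1% of all regions) and lower 5 (26.3%, against 27.8%). The interval lay above 0 in 3 (15.8%, against 10.2%) and below 0 in 4 (21.1%, against 21.8%). The median was -0.03. Centring gave 4 higher (against 20.4% of all regions) and 5 lower (22.7%). Of the 8 regions with 20 reads or more 0 were at least 2-fold higher, against 8.76% of all such regions, and 1 was lower, against 20.7%. That region was the one inside the Ltbp2 gene body, with 19 reads under TGF-b and 7 with siRNA, a ratio of -1.23 (-2.57 to -0.14). The Tgfbr1 promoter, at 29 and 16 reads, had a ratio of -0.77 (-1.67 to 0.06), which remained negative after centring (-0.55) and without the line (-0.82). Tgfbr2 had a region in intron 1, 784 bp downstream of a TSS (chr9:116003450-116003648), with 9 and 13 reads and a ratio of 0.58 (-0.57 to 1.82). Eng had 16 and 8 reads in intron 2, a ratio of -0.83 (-2.10 to 0.28). Ltbp1 had 2 regions higher and 2 lower, and in intron 10 (chr17:75563086-75563220) the reads were 4 and 13, a ratio of 1.60 (0.27 to 3.36).

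T set and S set regions coincided at 5 of the 10 genes, of which 7 had an S set region. An overlap of 1 bp or more was found for 6 of the 26 S set regions (23.1%, against 17.3% of all S set regions) and 7 of the 155 T set regions (4.52%, against 4.71%). They lay at the Tgfbr1 promoter (133 bp shared), in Ltbp1 intron 10 (135 bp), in Ltbp2 intron 35 (139 bp), in an intron beyond Tgfb2 (113 bp), and in Tgfbr3 introns 3 and 14. At the Tgfbr1 promoter, the TGF-b library had the most reads in both sets, unscaled for depth. Its normalized ratios over NC there were 1.03 (T set) and 0.65 (S set). For siRNA over TGF-b they were -0.10 and -0.77. Only the ratio of 1.03 had an interval without 0. In Ltbp1 intron 10 the T set had its deepest region of these genes, whereas the S set region there was called only with siRNA.

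Beyond the 10 genes, 1 region was taken for each further gene of the pathway, the densest within 3 kb of a TSS or else the nearest, and the same was done for all genes of a table. Of 10 genes at the SMAD level, 4 were at least 2-fold higher in the T set for TGF-b over NC, against 20% of all genes, and 2 lower, against 30.7%. Ski, a SMAD co-repressor, had 29 reads in NC, 158 with TGF-b and 41 with siRNA, and Smad6, an inhibitory SMAD, had 16, 46 and 41. The other 2 higher were Smad2 (18, 68 and 17) and Skil (0, 6 and 12). The 2 lower were Smad4, with 16 reads in NC and 2 with TGF-b, and Smurf1, with 83 and 36. Of 5 genes at the receptor level, 1 was higher and 1 lower. The higher one was Pmepa1, which dampens TGF-b signalling at the receptor, with 2, 29 and 8 reads. Of 15 further latency and activation genes, 13 had a region, 2 higher and 4 lower, and Bmp1, a protease that processes latent complexes, had 38 reads in NC and 2 with TGF-b. The same rule over the 10 genes gave 2 higher and 3 lower of 9. This choice differs from taking each gene's densest region wherever it lies, which gave 1 higher and 1 lower of 9.

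For siRNA over TGF-b in the T set, 37.4% of all genes were at least 2-fold higher and 19.4% lower by this rule. The 10 genes gave 3 and 2, the SMAD level 2 and 2 of 10, the receptor level 1 and 1 of 5, and the latency and activation genes 4 and 1 of 15. In the S set, 20.6% of all genes were higher and 22.3% lower for TGF-b over NC, and 15.4% higher and 20.6% lower for siRNA over TGF-b. There the 10 genes gave 2 and 2 of 7, then 0 and 2 of 7. By densest region they gave 2 and 2, then 1 and 0. The SMAD level gave 1 and 2 of 7, then 1 and 1 of 7. The receptor level gave 0 and 0 of 2, then 0 and 1 of 3. The latency and activation genes gave 1 and 0 of 5, then 2 and 1 of 9. In the S set, the Smad3 region, just upstream of a TSS, had 3 reads in NC, 24 with TGF-b and 8 with siRNA, and Ltbp3, a latent TGF-b binding protein, had 3, 21 and 8 at its start.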

How the data were processed

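CUT&Tag was performed on 6 libraries of mouse primary cardiac fibroblasts, 1 per treatment and set. The study's methods name GRCm39, Bowtie2 and a caller written as Masc2, whereas the submitters' processing notes name BWA 0.7.12 and mm10. Of 25439 genes in the tables, 1.11% had the GRCm38 gene start of GENCODE, so file coordinates were taken as GRCm39 and no sequence was read by them. The authors deposited 4 tables, each of 2 libraries over their merged peaks, with a normalized read density (a signal) that they rescaled along a line so that shared peaks centre on 0. Columns with the authors' own ratios and p-values were not used.

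The log2 ratio was computed from the deposited densities within each table. Undoing the line gave whole reads, within 0.1 read at 0.5 density per read (a 2 kb window), in 99.98% to 99.99% of regions and all regions of the 10 genes, and 1 read had been added to each count. Library totals were not used here. Regions had medians of 12.0 to 18.0 reads over both libraries. The recovery was tested on simulated data. Thresholds were 2-fold, 3 reads as the floor and 20 reads for a deep region. The members, gene lists and rules were chosen with earlier results of these data known. Each gene was named by its densest region within 3 kb of a TSS or else its nearest, its densest region, and every deep region past 2-fold, and further regions named in the text were chosen after their values were seen. Alternatives were centring, 1.5-fold, no line, at least 10 reads, and 1 region per gene. Gene lengths came from GENCODE on GRCm38. Python 3.11.15, numpy 2.4.6, pandas 2.3.3, scipy 1.17.1 and matplotlib 3.10.9 were used.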

Additional observations from a re-analysis of the deposited data

Results flagged for a closer look

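Some medians and overlapping regions had ratios on opposite sides of 0 in the T set and the S set, and the difference between sets was not tested. The median log2 ratio over the regions of the 10 genes was -0.83 (T set) and 0.18 (S set) for TGF-b over NC. It was 1.26 and -0.03 for TGF-b with siRNA over TGF-b, and the S set value came to 0.19 after centring. By gene, the median for TGF-b over NC had the same sign in both sets at Tgfb2, Tgfbr1, Tgfbr2 and Ltbp1, and opposite signs at Tgfbr3, Eng and Ltbp2. In the S set Tgfbr1, Tgfbr2, Eng and Ltbp2 had 1 region each and Tgfb2 had 2, so few regions stand behind those signs. The medians of all regions were -0.65 and -0.20, and 0.97 and -0.21, in that order. Where regions of the sets overlapped, Tgfbr3 intron 14 had -0.74 (T set) and 0.21 (S set) for TGF-b over NC, from 15 and 9 reads over both libraries. For siRNA over TGF-b, Ltbp1 intron 10 had -0.40 (-1.05 to 0.20) and 1.60 (0.27 to 3.36). Ltbp2 intron 35 had -0.96 (-2.53 to 0.28) and 0.47 (-0.56 to 1.55), and Tgfbr3 intron 3 had -1.12 (-2.35 to -0.12) and 0.10 (-1.19 to 1.39). In each pair at least 1 interval included 0. Other overlapping regions had the same sign in both sets: the Tgfbr1 promoter (1.03 and 0.65, then -0.10 and -0.77), Tgfbr3 intron 3 for TGF-b over NC (0.33 and 0.63 in the T set, 0.15 in the S set) and the region beyond Tgfb2 for siRNA (1.73 and 1.82).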

How the results depend on the processing

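No paired analysis was possible because each group has 1 library. Centring the T set ratios on the median of all regions gave 22 higher, 25 lower and a median of -0.18 for TGF-b over NC, and 25 higher, 22 lower and a median of 0.29 for siRNA over TGF-b. It also moved Tgfb1 to 0.76, Tgfbr1 to -1.08 and Tgfbr2 to -1.01 in the latter. For TGF-b over NC, a 1.5-fold threshold gave 15 higher and 60 lower of 93 in the T set, and 8 higher and 7 lower of 18 in the S set. For siRNA it gave 53 higher and 15 lower of 90 in the T set, and 4 higher and 8 lower of 19 in the S set. Without the authors' line, the S set had 8 higher and 3 lower for TGF-b over NC. With at least 10 reads, the T set had 5 higher and 30 lower of 75 for TGF-b over NC, and 33 higher and 7 lower of 66 for siRNA. The share of all regions was not computed at 1.5-fold or under this filter, so those counts have nothing to be set against. With 1 region per gene, its densest wherever it lies, the T set had 1 higher, 1 lower and a median of -0.55 for TGF-b over NC, and 3, 2 and 0.005 for siRNA, with fewer regions counted. The S set then had 2 higher and 2 lower, and 1 and 0. Of the 16 T set regions past 2-fold with 20 reads or more, 11 were still past it after centring for TGF-b over NC and 9 of 16 for siRNA, and without the line 16 and 13. Shallow regions limit the rest: 41.9% of the T set regions for TGF-b over NC had 3 reads or fewer in 1 library.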
